A study of Homo sapiens with 16 samples.

Results

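The 10 genes described here encode the AP-1 and early growth response transcription factors FOS, FOSB, FOSL1, FOSL2, JUN, JUNB, JUND, ATF3, EGR1 and EGR3. They were taken by symbol from the 34228 genes of the count table. All 10 passed the filter on low counts in every comparison. PolyA RNA was measured by RNA-Seq in a pair of human melanoma cell lines that had acquired resistance to BRAF inhibitors (BRAFi-R). The line 451Lu-R is MITF-hi/AXL-lo, and 1205Lu-R is of the opposite phenotype, MITF-lo/AXL-hi. Each line was given 2.5 μM corin, a bivalent inhibitor of the LSD1 and HDAC enzymes of the CoREST repressor complex, or the vehicle DMSO, for 24 h, with 2 libraries per group and 8 in all. Both lines had been made resistant with rising doses of PLX4032 and were routinely kept in 5 μM PLX4032, a condition the DMSO cells share with the corin cells; whether the drug was withdrawn before DMSO or corin was added is not given in the sources used here. Each phenotype is represented by 1 line, so a difference between the lines cannot be told apart from a difference between the 2 phenotypes. Libraries with PLX4032, alone or with corin, were not analysed here.

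AP-1 is a dimer of basic leucine zipper (bZIP) proteins. FOS proteins pair with JUN proteins, JUN proteins also pair with each other, and ATF3 can pair with itself or with JUN proteins. The dimers bind the TPA response element (TRE) or the cyclic AMP response element (CRE). EGR1 and EGR3 are zinc finger factors that bind GC-rich sites. Most of these genes are immediate early genes, which cells transcribe within minutes of a growth factor or stress signal, largely through the MAPK pathway, serum response factor (SRF) at CArG boxes, and CREB-type factors at CREs. In melanoma, FOSL1 and JUN are known for high levels in dedifferentiated, invasive cells.

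The promoters are shown because these genes are known to be switched through short elements close to the start. Any part of these elements in the response to corin was not tested. Sequences are the 250 bases before the RefSeq start on GRCh38.p14, written along the gene, with matches to the searched motifs in capitals. Promoters were read for 8 of the 10 members, with a pair for ATF3, and those of FOSL1 and EGR3 are not reported here. The search covered both strands for the TRE (TGANTCA), the CRE (TGACGTCA), a JUN-type element (TGACATCA), the CRE half-site (TGACGT, which every CRE also holds), an EGR site (GCGNGGGCG) and the CArG box. FOS (chr14:75278578-75278827, plus strand) held a CRE half-site, JUN (chr1:58784048-58784297, minus strand) and the upstream promoter of ATF3 (chr1:212565157-212565406, plus strand) each held a JUN-type element, JUND (chr19:18281623-18281872, minus strand) held a CRE and a separate half-site, and EGR1 (chr5:138465229-138465478, plus strand) held 2 CArG boxes, 2 CRE half-sites and an EGR site.
FOS promoter: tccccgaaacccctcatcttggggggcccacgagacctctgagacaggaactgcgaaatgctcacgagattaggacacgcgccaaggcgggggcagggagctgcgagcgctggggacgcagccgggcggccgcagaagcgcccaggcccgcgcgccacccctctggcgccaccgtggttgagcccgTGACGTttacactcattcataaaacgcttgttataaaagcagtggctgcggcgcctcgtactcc
JUN promoter: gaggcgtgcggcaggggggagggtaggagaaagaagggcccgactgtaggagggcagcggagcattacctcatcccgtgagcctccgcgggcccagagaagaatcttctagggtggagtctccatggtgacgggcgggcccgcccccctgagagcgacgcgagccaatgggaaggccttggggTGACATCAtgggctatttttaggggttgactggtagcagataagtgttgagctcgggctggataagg
JUND promoter: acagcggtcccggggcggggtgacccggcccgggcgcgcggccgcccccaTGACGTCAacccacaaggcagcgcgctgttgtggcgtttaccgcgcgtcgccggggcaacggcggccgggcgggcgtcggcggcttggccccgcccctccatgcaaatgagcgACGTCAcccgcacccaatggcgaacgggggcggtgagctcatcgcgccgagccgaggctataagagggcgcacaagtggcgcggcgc
ATF3 upstream promoter: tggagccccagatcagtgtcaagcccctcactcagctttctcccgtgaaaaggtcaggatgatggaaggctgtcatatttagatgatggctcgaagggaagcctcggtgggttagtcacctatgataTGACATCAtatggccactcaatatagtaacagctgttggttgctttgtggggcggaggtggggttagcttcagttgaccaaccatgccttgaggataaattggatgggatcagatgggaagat
EGR1 promoter: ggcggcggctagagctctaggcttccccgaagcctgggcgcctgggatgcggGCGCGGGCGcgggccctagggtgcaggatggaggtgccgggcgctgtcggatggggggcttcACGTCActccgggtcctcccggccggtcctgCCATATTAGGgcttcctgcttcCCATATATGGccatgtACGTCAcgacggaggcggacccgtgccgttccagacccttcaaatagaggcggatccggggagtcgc

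The FOS half-site began 64 bases before the start, and FOSB and FOSL2 carried one at 60 and 66 bases. The JUN-type element began 67 bases before the JUN start and 123 bases before the upstream ATF3 start. The EGR1 CArG boxes began 105 and 83 bases before its start. Neither the JUNB promoter nor the downstream ATF3 promoter held a match, and no promoter of the 8 members held a TRE. Of 35114 RefSeq promoters of the same length, 7.1% held a CRE half-site, 2.38% a JUN-type element, 1.65% a CRE, 1.16% a CArG box, 8.41% an EGR site and 6.57% a TRE. FOSL1 and EGR3 are named only. These matches are descriptions of the letters and show no binding. Sequence further upstream was not searched, so a promoter without a match here may hold the element elsewhere.

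**Figure D1:**
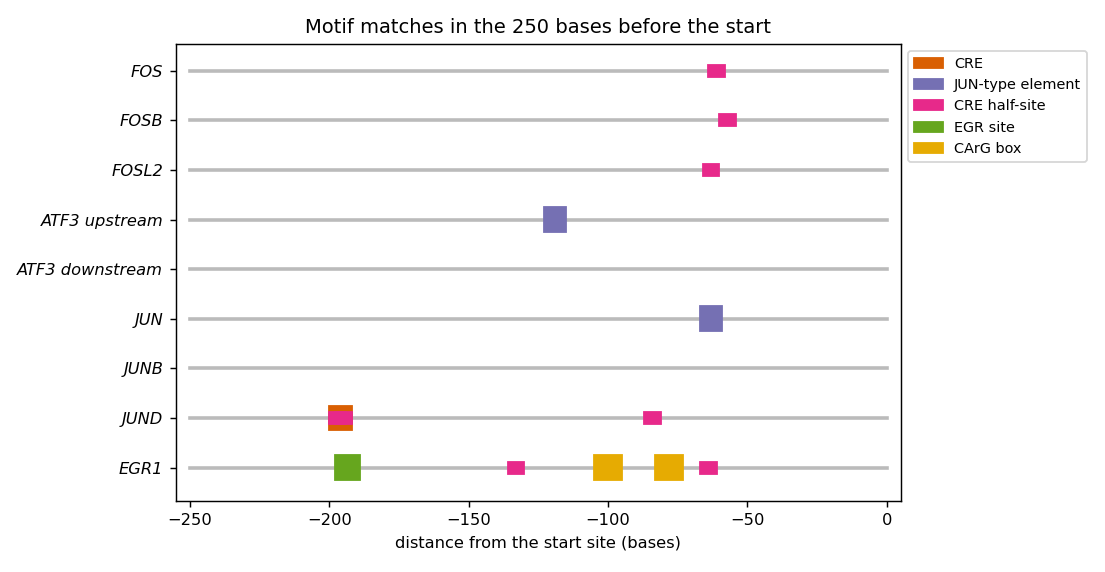
Motif matches in the 250 bases before the RefSeq start of 8 members, with 2 promoters for ATF3. The horizontal axis is the distance from the start in bases and each coloured block is a match; half-sites are drawn as smaller blocks. The half-sites of FOS, FOSB and FOSL2 lie 60 to 66 bases before the start, and the 2 CArG boxes found within this window are both in EGR1. Sequence further upstream was not searched.

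Library totals lay between 9516687 and 11797788 estimated counts, and 12867 to 13104 genes reached a level of 1 CPM (the count scaled to a common library size) with DMSO against 14201 to 14427 with corin. Levels below are CPM scaled by TMM over the 8 libraries. Groups that differ in both line and treatment were not tested against each other, and their order is given as a description. The labels name a replicate number but do not say that replicates were separate cultures, so p-values measure only the spread between these libraries, which may be technical. Melanocyte lineage genes matched the MITF labels: their summed level over 7 genes was 12656 to 12661 CPM in 451Lu-R with DMSO and 7.52 to 8.75 CPM in 1205Lu-R, where SOX10 and TYR had 0 counts. In bulk RNA, fewer cells of a type and less RNA per cell cannot be told apart.

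Corin raised 5 of the 10 factors in both lines. The lines differed in the direction of FOSB and EGR1 and in whether FOSL1 and FOSL2 passed the test. FOS, JUN, JUNB, JUND and ATF3 rose in both lines, and EGR3 fell in both. FOSB and EGR1 moved in opposite ways, down in 451Lu-R and up in 1205Lu-R. FOSL2 passed the test only in 451Lu-R, where it rose, and FOSL1 only in 1205Lu-R, where it fell; both differences between the lines were themselves past the threshold (below 0.05 in edgeR's false discovery rate, FDR, over all genes tested). In 451Lu-R, 6 members rose, beside 41.3% of all tested genes, and 3 fell, beside 38.6%. In 1205Lu-R, 7 rose, beside 40.4% of all tested genes, and 2 fell, beside 37.8%. Read against these shares, a call in either direction was common in these data, and the size of a change says more than the call. At a fold change of 4 or more with an FDR under 0.001, 2 members were higher in 451Lu-R (JUNB and ATF3) beside 12.4% of all genes and 0 were lower beside 2.72%. In 1205Lu-R, 4 were higher (FOS, JUNB, ATF3 and EGR1) beside 11.3% and 0 were lower beside 1.43%. The median log2 fold change of the 10 was 0.78 in 451Lu-R and 1.13 in 1205Lu-R, against 0.03 over all genes in each line.

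**Figure D2:**
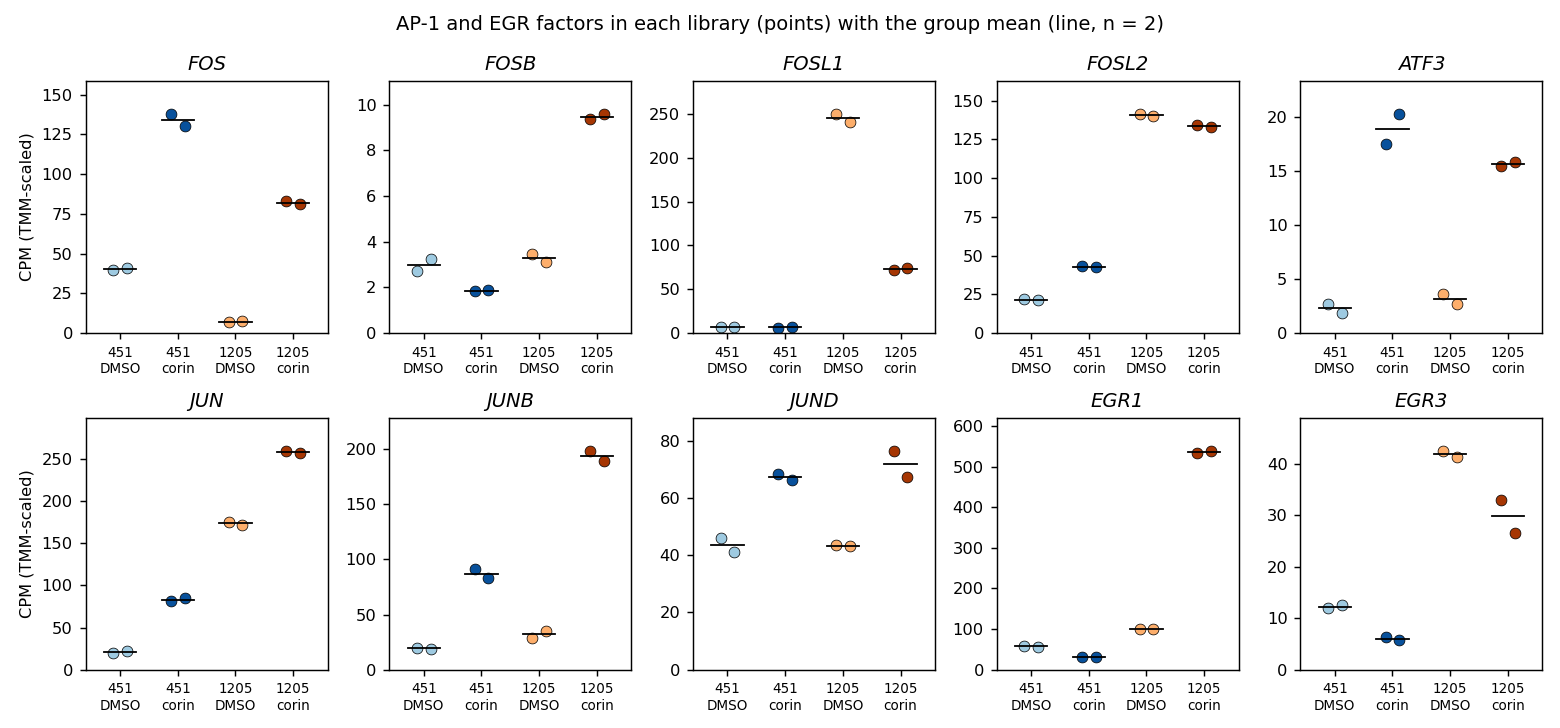
Level of each factor in every library. The vertical axis of each panel is TMM-scaled CPM from 0, points are the 2 libraries of a group and the line is their mean; panel labels shorten the names of the lines. FOSL1 sits at 241 and 250 CPM in 1205Lu-R with DMSO and under 8 CPM in all 4 451Lu-R libraries, and EGR1 stands at 534 and 539 CPM only in 1205Lu-R with corin.

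FOS (ENSG00000170345, chr14:75278826-75282230 on GRCh38, plus strand), the classical inducible partner of JUN, was at 39.5 and 40.9 CPM in the 451Lu-R DMSO libraries and at 138 and 130 CPM with corin. In 1205Lu-R it was at 6.68 and 7.33 CPM with DMSO and at 82.9 and 81.2 CPM with corin. No groups overlapped, and the order from low to high was 1205Lu-R DMSO, 451Lu-R DMSO, 1205Lu-R corin and 451Lu-R corin. FOS rose 3.29-fold in 451Lu-R (log2 fold change 1.72, SE 0.053, edgeR FDR = 1.4e-16) and 11.8-fold in 1205Lu-R (log2 fold change 3.56, SE 0.087, edgeR FDR = 1.4e-19). The response was larger in 1205Lu-R by 1.81 on the log2 scale (95% interval 1.57 to 2.04, edgeR FDR = 1.4e-11). Its level in 1205Lu-R nevertheless stayed below that of 451Lu-R with corin, with a log2 difference of -0.71 against -2.54 with DMSO.

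FOSB (ENSG00000125740, chr19:45467995-45475179, plus strand), a close relative of FOS, was the least abundant FOS member on the per-length scale in both lines with corin and with DMSO. It was at 2.72 and 3.25 CPM in 451Lu-R with DMSO, 1.85 and 1.87 CPM with corin, 3.48 and 3.13 CPM in 1205Lu-R with DMSO, and 9.35 and 9.60 CPM with corin. The 1205Lu-R corin libraries stood above all others, and the DMSO libraries of the lines overlapped. FOSB rose 2.89-fold in 1205Lu-R (log2 fold change 1.53, SE 0.18, edgeR FDR = 1.3e-07). In 451Lu-R it fell by 0.70 on the log2 scale (edgeR FDR = 0.040), a call resting on 18 to 33 counts per library that was lost in DESeq2 (adjusted p = 0.27) and without any 1 of the 4 libraries (edgeR FDR from 0.057 to 0.21). The responses differed by 2.19 on the log2 scale (95% interval 1.49 to 2.89). FOSB overlaps ERCC1 on the opposite strand, and the strand setting of the counting is not given in the sources used here.

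FOSL1 (ENSG00000175592, chr11:65892049-65900573, minus strand) encodes FRA-1, a FOS protein without the C-terminal activation domain of FOS. With DMSO it showed the widest gap between the lines among the 10 genes. It was at 7.11 and 6.89 CPM in 451Lu-R with DMSO and at 5.47 and 7.36 CPM with corin, and these groups overlapped. For 1205Lu-R the values were 250 and 241 CPM with DMSO and at 72.1 and 74.8 CPM with corin. FOSL1 fell to 0.303 of its DMSO level in 1205Lu-R (log2 fold change -1.72, SE 0.040, edgeR FDR = 6.4e-20). In 451Lu-R the log2 fold change was -0.16 with a 95% interval from -0.55 to 0.22 (edgeR FDR = 0.42), and without the first 451Lu-R corin library it was 0.05. The responses differed by -1.59 on the log2 scale (95% interval -1.96 to -1.23). FOSL1 was 34.6-fold higher in 1205Lu-R than in 451Lu-R with DMSO and 11.6-fold higher with corin.

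FOSL2 (ENSG00000075426, chr2:28392448-28417317, plus strand) encodes FRA-2, the other FOS protein of this kind. It was at 21.8 and 21.2 CPM in 451Lu-R with DMSO and 43.3 and 42.3 CPM with corin. The 1205Lu-R libraries gave 141 and 140.1 CPM with DMSO and 134 and 133 CPM with corin, so every 1205Lu-R library lay above every 451Lu-R library. FOSL2 rose 1.96-fold in 451Lu-R (log2 fold change 0.97, SE 0.077, edgeR FDR = 5.5e-10). In 1205Lu-R its log2 fold change was -0.06 with a 95% interval from -0.14 to 0.01 (edgeR FDR = 0.12), and it was -0.11 (edgeR FDR = 0.021) with no filter on low counts and 0.01 (edgeR FDR = 0.81) with library size only. The responses differed by -1.07 on the log2 scale (95% interval -1.23 to -0.91). FOSL2 overlaps the antisense gene FOSL2-AS1 and an unnamed gene on its own strand.

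**Figure D3:**
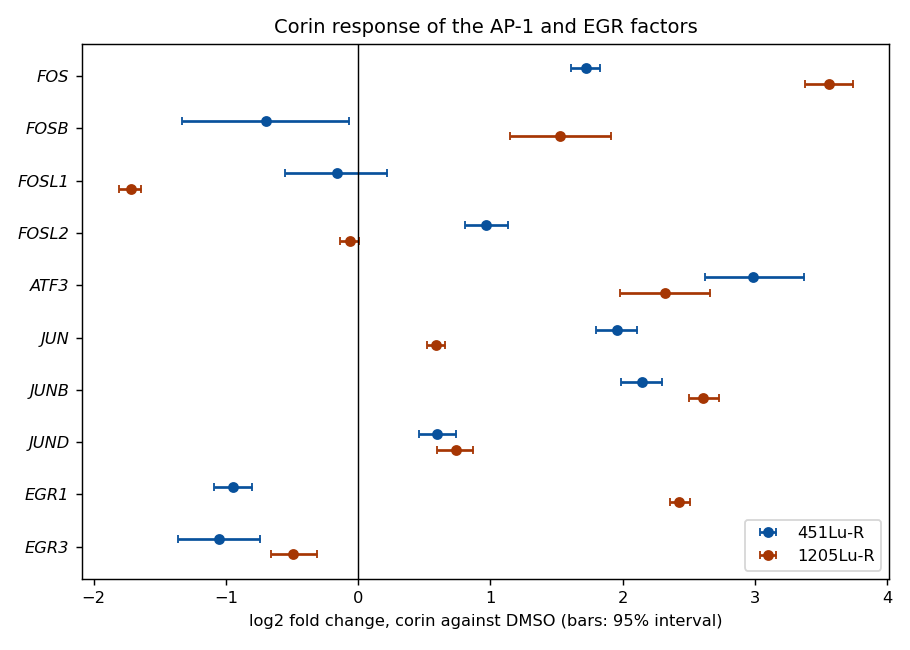
Log2 fold change of each factor with corin against DMSO, with its 95% interval, in 451Lu-R (blue) and 1205Lu-R (brown). The intervals of JUND and of ATF3 overlap between the lines, FOSB and EGR1 lie on opposite sides of 0 in the 2 lines, and the FOSL1 interval in 451Lu-R and the FOSL2 interval in 1205Lu-R include 0.

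JUN (ENSG00000177606, chr1:58776845-58784048, minus strand), the JUN protein with the strongest activation domain, was at 20.0 and 22.1 CPM in 451Lu-R with DMSO and 81.1 and 85.0 CPM with corin. In 1205Lu-R it was at 175 and 172 CPM with DMSO and 260 and 257 CPM with corin. Its groups did not overlap. JUN rose 3.88-fold in 451Lu-R (log2 fold change 1.96, SE 0.073, edgeR FDR = 3.0e-15) and 1.5-fold in 1205Lu-R (log2 fold change 0.59, SE 0.033, edgeR FDR = 3.7e-13). The response was smaller in 1205Lu-R by 1.40 on the log2 scale (difference -1.40, 95% interval -1.56 to -1.25). The level was 8.15-fold higher in 1205Lu-R than in 451Lu-R with DMSO and 3.11-fold higher with corin.

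JUNB (ENSG00000171223, chr19:12791486-12793315, plus strand), which often counters JUN in growth control, had the highest fitted fold change of the JUN members in both lines. It was at 19.6 and 19.1 CPM in 451Lu-R with DMSO and 91.2 and 83.2 CPM with corin. For 1205Lu-R the values were 29.1 and 34.9 CPM with DMSO and 199 and 189 CPM with corin. JUNB rose 4.43-fold in 451Lu-R (log2 fold change 2.15, SE 0.074) and 6.12-fold in 1205Lu-R (log2 fold change 2.61, SE 0.056). The difference of the responses was 0.43 on the log2 scale (edgeR FDR = 0.0033), and without the first 1205Lu-R DMSO library it was 0.29 (edgeR FDR = 0.051). JUNB overlaps HOOK2 on the opposite strand.

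JUND (ENSG00000130522, chr19:18279694-18281622, minus strand), the JUN member that most cells express constitutively, moved least within the JUN family in 451Lu-R and was the factor whose levels were closest between the lines. It was at 46.1 and 41.1 CPM in 451Lu-R and 43.6 and 43.2 CPM in 1205Lu-R with DMSO, and these libraries overlapped. With corin it was at 68.4 and 66.2 CPM in 451Lu-R and 76.5 and 67.3 CPM in 1205Lu-R, which overlapped as well. JUND rose 1.52-fold in 451Lu-R (log2 fold change 0.60, SE 0.065) and 1.67-fold in 1205Lu-R (log2 fold change 0.74, SE 0.065). The difference of the responses was 0.10 on the log2 scale with a 95% interval from -0.10 to 0.30 (edgeR FDR = 0.42), which leaves room for a difference of up to 0.30. It was 0.31 (edgeR FDR = 0.0087) with scaling by library size only, a scaling that moved the median difference of all genes from -0.01 to 0.20.

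ATF3 (ENSG00000162772, chr1:212565334-212620777, plus strand), a stress-induced bZIP factor, had the largest rise of the 10 in 451Lu-R. It was at 2.72 and 1.87 CPM with DMSO and 17.5 and 20.3 CPM with corin in that line. The 1205Lu-R libraries gave 3.57 and 2.74 CPM with DMSO and 15.5 and 15.8 CPM with corin. The DMSO libraries of the lines did not overlap, though the closest stood at 2.72 and 2.74 CPM, and every corin library lay above every DMSO library. ATF3 rose 7.97-fold in 451Lu-R (log2 fold change 2.99, SE 0.18, edgeR FDR = 6.9e-12) and 4.996-fold in 1205Lu-R (log2 fold change 2.32, SE 0.17, edgeR FDR = 2.4e-11). The difference of the responses was -0.71 on the log2 scale (edgeR FDR = 0.048), a call that was lost in DESeq2 (adjusted p = 0.13), with RLE size factors (edgeR FDR = 0.051) and without the second 451Lu-R DMSO, the second 451Lu-R corin, the first 1205Lu-R DMSO or either 1205Lu-R corin library (edgeR FDR from 0.064 to 0.27). Its DMSO values rest on 19 to 38 counts per library.

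EGR1 (ENSG00000120738, chr5:138465479-138469303, plus strand), which joins growth factor signals to transcription, showed the largest difference of response among the 10. It was at 58.4 and 57.1 CPM in 451Lu-R with DMSO and 30.2 and 30.9 CPM with corin. In 1205Lu-R it was at 101 and 99.9 CPM with DMSO and 534 and 539 CPM with corin. No groups overlapped, and the 1205Lu-R corin libraries stood above all others. EGR1 fell to 0.519 of its DMSO level in 451Lu-R (log2 fold change -0.95, SE 0.069, edgeR FDR = 1.6e-10) and rose 5.40-fold in 1205Lu-R (log2 fold change 2.43, SE 0.035, edgeR FDR = 1.2e-23). The responses differed by 3.34 on the log2 scale (95% interval 3.19 to 3.49, edgeR FDR = 2.8e-19). The promoter with 2 CArG boxes shown above belongs to this gene.

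EGR3 (ENSG00000179388), which EGR1 and MAPK signals are known to induce, was at 12.02 and 12.5 CPM in 451Lu-R with DMSO and 6.26 and 5.70 CPM with corin. For 1205Lu-R the values were 42.5 and 41.2 CPM with DMSO and 33.0 and 26.6 CPM with corin. Every corin library lay below the DMSO libraries of its own line, and every 1205Lu-R library lay above every 451Lu-R library. EGR3 fell to 0.482 of its DMSO level in 451Lu-R (log2 fold change -1.05, SE 0.15) and to 0.714 in 1205Lu-R (log2 fold change -0.49, SE 0.086). The difference of the responses was 0.53 on the log2 scale (edgeR FDR = 0.018), lost in DESeq2 (adjusted p = 0.060) and without the second 451Lu-R DMSO, the second 451Lu-R corin or the first 1205Lu-R corin library (edgeR FDR from 0.055 to 0.070). EGR3 and EGR1 therefore moved the same way in 451Lu-R and opposite ways in 1205Lu-R.

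In the test of the response difference over all 8 libraries, 5 members responded more positively in 1205Lu-R, beside 22.6% of all tested genes, and 4 less, beside 27.1%. The 5 were FOS, FOSB, JUNB, EGR1 and EGR3, and the 4 were FOSL1, FOSL2, JUN and ATF3. At 4-fold with an FDR under 0.001, 2 members (FOSB and EGR1) were more positive, beside 2.43% of all genes, and 0 were less, beside 3.13%. The lines were also compared under each treatment, in tests that share their libraries with the corin comparisons. With DMSO, 6 members were higher in 1205Lu-R, beside 41.0% of all tested genes, and 1 was lower, beside 41.5%. The 6 were FOSL1, JUN, FOSL2, EGR3, EGR1 and JUNB, with log2 differences from 5.11 to 0.70, and the lower one was FOS. At the stricter threshold 3 were higher (FOSL1, FOSL2 and JUN), beside 10.1% of all genes, and FOS was lower, beside 10.6%. FOSB, JUND and ATF3 did not pass the test with DMSO, with 95% intervals of -0.39 to 0.66, -0.17 to 0.11 and -0.16 to 1.02. With corin, 7 members were higher in 1205Lu-R, beside 39.0%, and 2 were lower, beside 40.2%. At the stricter threshold 4 were higher (FOSB, FOSL1, EGR1 and EGR3), beside 8.45%, and 0 were lower, beside 8.55%. The largest log2 difference with corin was that of EGR1, at 4.13, against 0.78 with DMSO. ATF3 was lower in 1205Lu-R with corin by a log2 difference of -0.27 (edgeR FDR = 0.031), and this call was lost in DESeq2 (adjusted p = 0.21) and without the second 451Lu-R corin or either 1205Lu-R corin library (edgeR FDR from 0.063 to 0.22).

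Levels of different genes were compared only per kb of merged exon length. In 451Lu-R with DMSO the most abundant of the 10 were JUND at 22.6 ± 1.80 CPM per kb (SD, n = 2), EGR1 at 18.4 ± 0.304 and FOS at 12.6 ± 0.324. With corin they were JUNB at 47.6 ± 3.09, FOS at 42.1 ± 1.68 and JUND at 34.9 ± 0.791. In 1205Lu-R with DMSO they were FOSL1 at 130.1 ± 3.64, JUN at 47.8 ± 0.573 and EGR1 at 31.97 ± 0.161. With corin they were EGR1 at 171 ± 1.19, JUNB at 106 ± 3.65 and JUN at 71.3 ± 0.474. On this scale the leading factor differed in each of the 4 groups. Without dividing by length, EGR1 led both in 451Lu-R with DMSO, at 57.75 CPM, and in 1205Lu-R with corin, at 537 CPM. FOS then led in 451Lu-R with corin, at 134.1 CPM against 87.15 CPM for JUNB, so the leading factor there depends on the length used.

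The make-up of the FOS transcripts differed between the lines and moved with corin in both. Of the summed FOS level per length in 451Lu-R, FOS made up 63.0% and 64.1% in the controls and 82.3% and 80.1% after corin. For 1205Lu-R these shares were 1.35% and 1.53% in the controls and 30.8% and 29.9% after corin. FOSL1 made up 85.5% and 85.0% of the 1205Lu-R controls, 45.2% and 46.4% after corin, and 19.1% and 18.2% of the 451Lu-R controls. The summed FOS level went from 19.7 and 20.1 to 52.5 and 51.0 CPM per kb in 451Lu-R, whereas in 1205Lu-R it went from 155 and 149.9 to 84.6 and 85.4 CPM per kb. These are descriptions with no test. The shares depend on the length used: without dividing by length, the highest share in 1205Lu-R with corin was that of FOSL2, at 44.7%, against 24.6% for FOSL1.

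Among the JUN members, JUND led in 451Lu-R with DMSO, at 59.5% and 56.3% of the summed level per length, and JUNB led with corin, at 46.3% and 44.01%. In 1205Lu-R, JUN led with DMSO, at 55.6% and 53.4%, and JUNB led with corin, at 49.4% in both libraries. The summed JUN level went from 40.1 and 37.9 to 108 and 103 CPM per kb in 451Lu-R and from 86.7 and 88.9 to 220 and 209 CPM per kb in 1205Lu-R. The highest JUN share in 1205Lu-R with corin was that of JUN, at 49.3%, when levels were not divided by length, against 37.0% for JUNB.

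**Figure D4:**
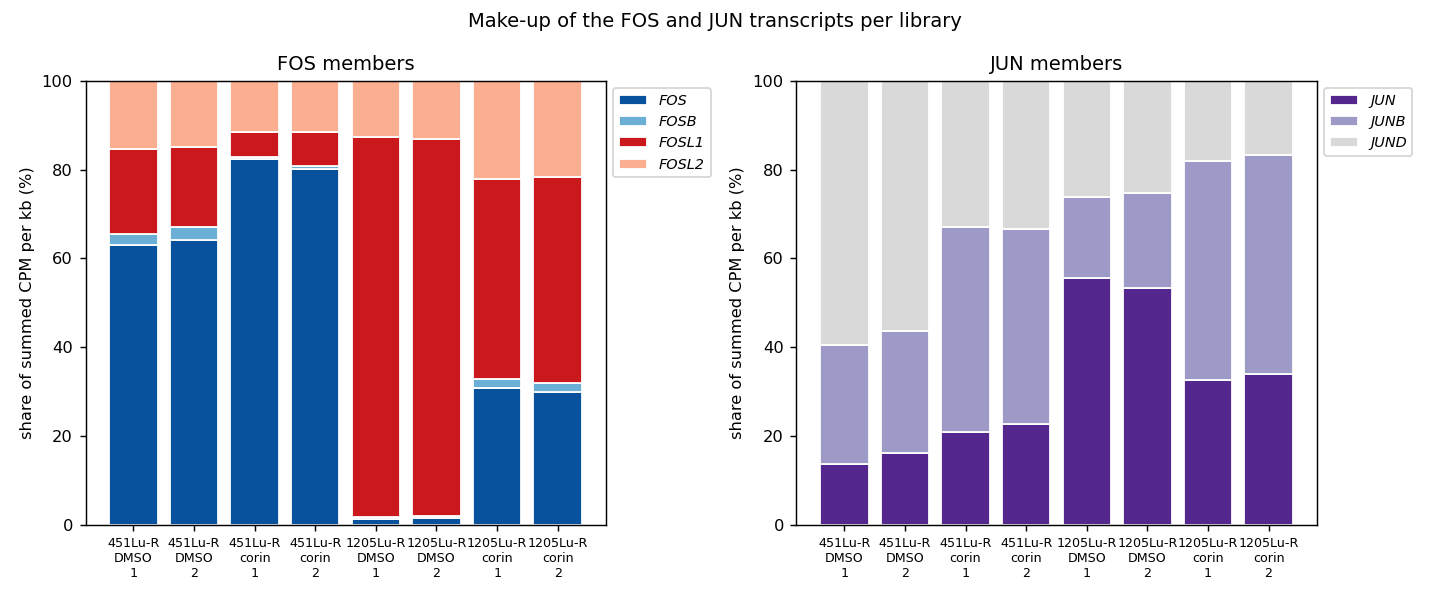
Share of each member in the summed CPM per kb of the FOS members (left) and of the JUN members (right), one bar per library, in percent from 0 to 100. FOSL1 fills 85.5% and 85.0% of the FOS bars in 1205Lu-R with DMSO, and JUNB has the largest share of the JUN bars in every corin library.

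Other genes of the same circuit were grouped by role. Where a pair of log2 values follows a gene, the first is the corin response of 451Lu-R and the second that of 1205Lu-R. Of 12 bZIP partners of FOS and JUN, 451Lu-R had 6 higher and 3 lower of the 10 tested, beside 41.3% and 38.6% of all tested genes. In 1205Lu-R, 7 were higher and 2 lower of the 11 tested, beside 40.4% and 37.8%. BATF3 had at most 3 counts in each 451Lu-R DMSO library and passed the filter through corin. Without BATF3, 5 of 9 were higher in 451Lu-R. BATF3, a JUN partner in immune cells, rose in 451Lu-R, with 4 counts over both DMSO libraries and 130 over both corin libraries (ratio of mean CPM 32.4, exact 95% counting interval 12.4 to 121), and its log2 fold change was 1.54 in 1205Lu-R. ATF7, a CREB-type factor, fell by 0.36 and 0.59. MAFG, a small MAF protein, fell by 0.73 in 451Lu-R and had a log2 fold change of 0.08 in 1205Lu-R (edgeR FDR = 0.16).

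Of the EGR relatives and NAB corepressors, EGR2 rose in both lines, by 1.32 and 2.09, so in 451Lu-R it moved against EGR1 and EGR3. NAB1 and NAB2, corepressors that bind EGR proteins, rose in 451Lu-R by 0.18 and 0.26 and fell in 1205Lu-R by 0.28 and 0.52. Their responses differed by -0.50 and -0.81 (edgeR FDR = 3.4e-05 and 1.3e-07). Of 6 genes of SRF and its cofactors, 451Lu-R had 3 higher and 3 lower, beside 41.3% and 38.6% of all tested genes. In 1205Lu-R, 2 were higher and 3 lower, beside 40.4% and 37.8%. Counts over so few genes say little about the group as a set. MRTFA, an actin-regulated cofactor of SRF, rose by 1.04 and 1.02. SRF itself fell by 0.74 and 0.61, and ELK3, an ETS cofactor, fell by 0.23 and 0.63.

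Of 12 kinases and ubiquitin ligases that act on JUN and FOS, 451Lu-R had 5 higher and 6 lower, beside 41.3% and 38.6% of all tested genes. In 1205Lu-R, 3 were higher and 6 lower, beside 40.4% and 37.8%. With so few genes, these counts say little about the list as a set. The JNK genes MAPK8 and MAPK10 rose in both lines, MAPK8 by 1.04 and 0.73 and MAPK10 by 3.03 and 2.81. MAPK10 was scarce even after corin, with means of 7.01 and 3.11 CPM. MAP2K7, which activates JNK, fell by 0.60 and 0.47. COP1, a ubiquitin ligase that marks JUN for degradation, fell by 0.60 and 0.92. RPS6KA1 and RPS6KA2, RSK kinases named after their values were seen, were the 2 genes of the list that rose in 451Lu-R (by 1.08 and 0.74) and fell in 1205Lu-R (by 0.49 and 0.57).

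Of 24 other immediate early genes, 451Lu-R had 18 higher and 2 lower of the 23 tested, beside 41.3% and 38.6% of all tested genes. In 1205Lu-R, 20 were higher and 4 lower of the 24 tested, beside 40.4% and 37.8%. Their median log2 fold change was 1.40 in 451Lu-R and 1.03 in 1205Lu-R, against 0.03 over all genes. Within the list, 16 genes rose in both lines, a count for which no share over all genes was taken. ARC, a neuronal immediate early gene, rose by 6.04 and 4.37, from 0.290 ± 0.286 to 19.4 ± 0.736 CPM (SD, n = 2) in 451Lu-R and from 16.0 ± 0.157 to 328 ± 4.25 CPM in 1205Lu-R. DUSP1, a phosphatase of MAP kinases, rose by 3.54 and 2.98. ZFP36L2, an RNA-decay factor, fell by 0.70 and 0.80. KLF6 had a log2 fold change of 0.00 in 451Lu-R (edgeR FDR = 0.96) and fell by 0.60 in 1205Lu-R.

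Of 20 genes known as AP-1 targets, 451Lu-R had 14 higher and 1 lower of the 16 tested, beside 41.3% and 38.6% of all tested genes. In 1205Lu-R, 12 were higher and 6 lower of the 18 tested, beside 40.4% and 37.8%. Among the targets 10 rose in both lines, a count for which no share over all genes was taken. In the 451Lu-R controls 5 of the 16 (CXCL8, PTGS2, MMP1, MMP9 and MMP13) had at most 3 counts per library and passed the filter through their corin libraries. Without them 9 of 11 were higher in that line. One target, MMP10, was in this position in 1205Lu-R, and without it 11 of 17 were higher. The median log2 fold change was 2.13 for 451Lu-R and 2.06 for 1205Lu-R, or 2.12 and 2.06 with these genes set to their fold over 3 counts per library. CXCL8, a neutrophil chemokine, went from 0.867 ± 0.294 to 180 ± 5.89 CPM (SD, n = 2) in 1205Lu-R, and its log2 fold change there was 7.70. In 451Lu-R it had 4 counts over both DMSO libraries and 439 over both corin libraries (ratio of mean CPM 112, exact 95% counting interval 43.4 to 412). PTGS2, the inducible cyclooxygenase, had a log2 fold change of 5.14 in 1205Lu-R and was at least 5.57-fold higher in 451Lu-R. CD44, a hyaluronan receptor, fell by 1.22 and 0.81. LIF, an IL-6 family cytokine, fell by 2.19 in 1205Lu-R and had a log2 fold change of -0.76 in 451Lu-R (edgeR FDR = 0.096). CCND1, SPHK1 and VEGFA, named after their values were seen, were the 3 targets that rose in 451Lu-R (by 2.01, 0.52 and 0.48) and fell in 1205Lu-R (by 0.28, 1.46 and 1.21).

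**Figure D5:**
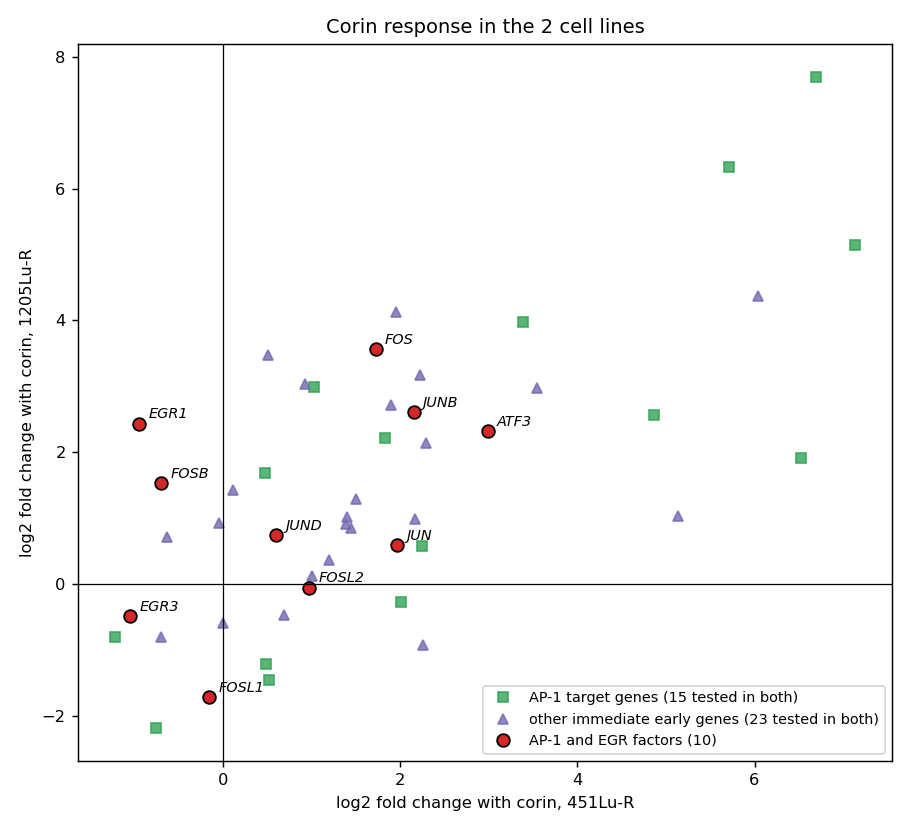
Log2 fold change with corin in 451Lu-R (horizontal) against 1205Lu-R (vertical) for the 10 factors (red, named), 15 AP-1 target genes (green squares) and 23 other immediate early genes (purple triangles) tested in both lines. Genes at the floor in the 451Lu-R DMSO libraries, such as CXCL8 and PTGS2, have fitted values that depend on the prior count.

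Markers of other cells were given beside these lists because some moved with corin. Of 4 endothelial markers, VWF rose by 2.70 and 3.70, CDH5 and TEK stayed under 1 CPM in every group, and PECAM1 had 0 counts in 451Lu-R and was at 9.78 ± 0.532 CPM with DMSO and 7.16 ± 1.79 CPM after corin in 1205Lu-R. The summed endothelial level was 1.28 to 1.40 CPM with DMSO and 8.73 to 9.54 CPM with corin in 451Lu-R, and 11.1 to 11.2 and 23.9 to 27.5 CPM in 1205Lu-R. The summed level of 4 epithelial markers was 0.492 to 0.614 CPM with DMSO and 5.08 to 6.35 CPM with corin in 451Lu-R, where KRT14 took 4.56 to 4.94 CPM, and at most 0.352 CPM in 1205Lu-R. Of the blood cell markers, PTPRC stayed under 1 CPM and CD68 rose by 0.52 and 0.35. Their part in the results was not tested.

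By the correlation of log2 CPM over the 8 libraries, among 96 candidate genes, FOSL1 was most like LIF (r rounding to 1), EGR1 and FOSB most like each other (r = 0.99), JUNB most like CXCL8 (r = 0.99), EGR3 most like CD44 (r = 0.99) and FOS most like NR4A2 (r = 0.95). FOSL2 was most like IER2 (r = 0.99), JUN most like MAFK (r = 0.99), JUND most like EGR2 (r = 0.98) and ATF3 most like MRTFA (r = 0.98). The 8 points fall into 4 groups of 2 libraries and share the same scaling, so the values describe the shape over the groups and carry no test.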

How the data were processed

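PolyA RNA was sequenced from 16 libraries. Per the submitters' notes, paired-end reads were trimmed with Trimmomatic and quantified per gene by Salmon on GENCODE v32 transcripts; versions are not given in the sources used here. For the 8 corin and DMSO libraries the authors deposited estimated counts, not normalized. The tables for PLX4032 plus corin hold the authors' own fold changes and adjusted p-values and were not used, and these 8 libraries were not analysed here.

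Estimated counts were rounded. Of 34228 genes, 34052 were matched to GENCODE 44 names. edgeR 4.0.16 in R 4.3.3 was used (filterByExpr, TMM, glmQLFit, glmQLFTest, 2-sided, Benjamini-Hochberg over all genes tested). Genes rose or fell at an FDR under 0.05. A group with at most 3 counts in each library was treated as at the floor: against 0 counts a fold over 3 counts per library is a lower bound, and against 1 to 3 counts the ratio is given with its exact counting interval, which covers counting error only. Intervals are 95%. Lengths are merged GENCODE 44 exons, not Salmon's effective lengths. The members, gene lists and tests were chosen with earlier results of these data known. Beyond the 10 members, a rule named at most 4 genes per list. These were the 2 highest and 2 lowest by mean log2 fold change over both corin comparisons among genes tested in both. Outside that rule, RPS6KA1, RPS6KA2, CCND1, SPHK1 and VEGFA were named after their values were seen. Targets at the floor, cell type markers and the genes most like a member were also named outside it. Some genes this rule and the marker lists hold are not reported here. Alternatives were DESeq2 1.42.0, RLE, library size only, other filters, a replicate block, 1 fit of all libraries, a stricter threshold, leaving out each library, and other lengths. Deviations of same-numbered libraries correlated with r from -0.017 to 0.046, so no pairing by number was seen. With 2 libraries per group, these values cannot exclude a pairing. Chi-square per degree of freedom between replicates was 1.34 to 1.40, above the 1 of counting noise alone. Since the counts are rounded estimates, this does not show a spread between cultures. The scripts were tested on simulated data.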

Additional observations from a re-analysis of the deposited data

Results flagged for a closer look

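The corin response differed between the cell lines for 9 of the 10 factors in the interaction test over the 8 libraries, in which 22.6% of all tested genes were called higher and 27.1% lower. Values are the log2 response in 1205Lu-R minus that in 451Lu-R. FOS differed by 1.81, FOSB by 2.19, JUNB by 0.43, EGR1 by 3.34 and EGR3 by 0.53, all more positive in 1205Lu-R. FOSL1 differed by -1.59, FOSL2 by -1.07, JUN by -1.40 and ATF3 by -0.71, all more positive in 451Lu-R. EGR1 and FOSB are the pair in which the direction itself differed, with 2 of 2 corin libraries below the DMSO libraries in 451Lu-R and above them in 1205Lu-R. The FOSB fall in 451Lu-R rests on 18 to 33 counts per library and lost its call in DESeq2 (adjusted p = 0.27), with the replicate block (edgeR FDR = 0.075) and in every fit without 1 library. The differences of ATF3, EGR3 and JUNB lost their call when single libraries were left out.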

How the results depend on the processing

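Values for single factors were counted together with the folds of the summed FOS and JUN levels under other lengths. Of these, 553 were unchanged under the alternatives, 27 lost the call, 4 gained it and 4 turned sign. Unchanged means the same direction and, for single factors, also the same side of the threshold. The 4 that turned sign were all values of single factors that had not passed the test. FOSL1 in 451Lu-R ran from -0.38 to 0.05 when each library was left out. FOSL2 in 1205Lu-R was 0.01 with library size only. Between the lines with DMSO, FOSB ran from -0.01 to 0.26 and JUND from -0.10 to 0.04 when each library was left out. At an FDR under 0.001 with a fold change of 4 or more, corin left 2 members higher and 0 lower for 451Lu-R, and 4 higher and 0 lower for 1205Lu-R. The same threshold gave 2 and 0 for the difference of the responses, 3 higher and 1 lower for 1205Lu-R with DMSO, and 4 and 0 for 1205Lu-R with corin. The count of members lower in 1205Lu-R with corin was 1 with DESeq2, with library size only and with all libraries in one fit, and 1 to 2 when each library was left out, since ATF3 lost its call.

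With the replicate block, FOSB in 451Lu-R (log2 fold change -0.69, edgeR FDR = 0.075) and the ATF3 difference (-0.71, edgeR FDR = 0.071) lost their calls and no other call of a factor changed. Scaling by library size only moved the median difference of the responses over all genes from -0.01 to 0.20, and the genes called higher made up 64.0% of calls against 45.4%. It also moved the median between the lines with DMSO from -0.01 to -0.12. FOSL2 in 1205Lu-R passed at -0.11 (edgeR FDR = 0.021) with no filter on low counts. JUND between the lines with corin passed at 0.18 with library size only and at 0.19 without the second 1205Lu-R corin library. Of the family shares, 40 moved by more than the spread between replicates under another length and 8 did not. With 2 libraries per group, the changes of FOSB and ATF3 rest on 18 to 38 counts per library in their low groups. A library left alone in its group was assumed to vary like the others.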
